A study of Mus musculus with 3 samples.

Results

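The AP-1 and immediate early genes described here are 10 genes chosen by symbol: Fos, Fosb, Jun, Junb, Jund, Fosl1, Fosl2, Atf3, Egr1 and Ier2. They are 10 of the 32285 genes counted, and all 10 were found in every count table. AP-1 is a dimer of basic leucine zipper proteins, usually a Fos family member (Fos, Fosb, Fosl1, Fosl2) with a Jun family member (Jun, Junb, Jund), that binds DNA and activates or represses transcription. Immediate early genes are transcribed within minutes of a stimulus without new protein synthesis, and in skin they respond to growth factors, wounding, stress and the enzymatic release of cells from tissue. In keratinocytes AP-1 proteins are known for their part in differentiation and inflammation.

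Transcripts were counted by scRNAseq of back skin cells in 3 libraries, 1 per age: P38 (male, catagen), 6 months (female, mostly anagen) and 12 months (male, mixed telogen and anagen). All mice were labelled wildtype and untreated. The methods name Krt14-H2B-GFP mice, in which the Krt14 promoter drives a nuclear GFP in basal epithelial cells, a sort on GFP and surface proteins, and P38 cells from an earlier experiment. The number of mice per library is not given in the sources used here. Age, sex, hair cycle stage, sort and library cannot be told apart, so no test was made between ages.

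The cell filter stated in the methods, applied to the deposited matrices, kept 2109, 3502 and 3240 cells at P38, 6 months and 12 months, with median depths of 16170, 1019 and 11439 unique molecular identifiers (UMIs). At P38 this equals the number of cells the methods give after filtering, at 12 months it is slightly larger, and at 6 months it is much larger, for which the methods give no further step. Of the kept cells, 86 at P38, 1839 at 6 months and 186 at 12 months held under 1000 genes. Of these 8851 cells, 5222 (59%) passed a marker gate and were assigned to a class, and each class is called "-like" because its name rests on marker transcripts alone. IFE is the interfollicular epidermis, UpHF the upper hair follicle, SG the sebaceous gland, HF-SC the hair follicle stem cell, HG the hair germ, Niche the inner bulge layer and migNiche the migratory niche. None of the 10 genes was a marker in the gate. Levels are CPM, the UMIs of a gene scaled to a common total over the summed cells of a class in a library, given for at least 20 cells, which yielded 34 class and library sums. The 6 epithelial classes present in every library were IFE basal-like, IFE suprabasal-like, UpHF-like, SG-like, HF-SC-like and HG-like. The P38 library held no fibroblast-like, T cell-like or Langerhans and macrophage-like cell, so these classes have values at 6 and 12 months. Cell barcodes were compared between libraries, and 81 were shared by the 6 months and 12 months libraries, 3 by P38 and 6 months and 1 by P38 and 12 months. Many of these cells were SG-like: removing them left 55 of 90 SG-like cells at 6 months and 29 of 69 at 12 months. The removal changed no call of a member.

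The promoters of Fos, Fosb and Junb are shown because Fosb had the profile most like that of Fos over classes and libraries, while Junb stood apart from both in T cell-like cells. The 250 bases before the RefSeq start are given 5′ to 3′ on the gene's strand (GRCm38.p6), with TGACG, the core of the cAMP response element, and TATAAA, the TATA box, in capitals on either strand. The windows are chr12:85473640-85473889 (plus strand) for Fos, chr7:19310046-19310295 (minus) for Fosb and chr8:84978749-84978998 (minus) for Junb.
Fos: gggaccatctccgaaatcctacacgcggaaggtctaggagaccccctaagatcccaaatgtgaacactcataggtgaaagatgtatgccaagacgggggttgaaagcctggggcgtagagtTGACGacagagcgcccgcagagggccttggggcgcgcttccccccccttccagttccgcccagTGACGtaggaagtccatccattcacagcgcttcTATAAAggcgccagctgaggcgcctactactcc
Fosb: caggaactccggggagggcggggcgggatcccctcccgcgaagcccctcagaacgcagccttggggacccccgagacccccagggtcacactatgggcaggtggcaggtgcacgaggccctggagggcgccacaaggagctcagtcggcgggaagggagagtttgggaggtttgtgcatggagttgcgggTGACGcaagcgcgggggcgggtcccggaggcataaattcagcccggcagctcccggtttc
Junb: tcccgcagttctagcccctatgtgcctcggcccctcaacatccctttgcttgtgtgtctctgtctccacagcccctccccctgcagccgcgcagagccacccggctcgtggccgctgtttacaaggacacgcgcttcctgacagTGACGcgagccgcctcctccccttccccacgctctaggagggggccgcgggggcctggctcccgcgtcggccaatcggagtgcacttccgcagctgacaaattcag
Fos held TGACG at 129 and 66 bases before its start and TATAAA at 33 bases, Fosb held TGACG at 60 bases and Junb at 106 bases. TGACG occurred in 17.8% and TATAAA in 12.4% of all 32851 RefSeq windows of this length. TGACG was chosen after these promoters had been seen, so its presence in them is no test against that share. The AP-1 site TGANTCA (6.75% of windows) and the CArG box (1.47%), the site of serum response factor, occurred in none of the windows of the 7 members with an entry. Of these 7, Atf3 also held TGACG once, and Jun, Jund and Fosl2 held none of the motifs. The RefSeq windows of Fosl2 (chr5:32136222-32136471) and Atf3 (chr1:191183334-191183583) lie inside the annotated bodies of these genes, not upstream of them. That of Jund (chr8:70697489-70697738) lies upstream but does not adjoin the annotated start of the gene at 70698949. Egr1, Fosl1 and Ier2 had no entry. A match of letters is a description and not a bound site. Sites more than 250 bases before the start, or spelled differently, were not sought. A motif missing from a window therefore does not show that the gene lacks such a site.

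The annotated gene bodies (GRCm38, GENCODE annotation) lie at chr12:85473890-85477273 for Fos, chr7:19302696-19310051 for Fosb, chr4:95049034-95052222 for Jun, chr8:84974484-84978718 for Junb and chr8:70698949-70700616 for Jund. Fosl1 lies at chr19:5447547-5455946, Fosl2 at chr5:32135801-32157842, Atf3 at chr1:191170296-191218039, Egr1 at chr18:34859823-34864984 and Ier2 at chr8:84661331-84662852. UMIs were assigned to whole genes, so exonic and intronic origin and isoforms were not separated.

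Fos, the founding member of its family, took a different order over the libraries in different classes. In IFE basal-like cells its level was 1653 CPM at P38, 3585 CPM at 6 months and 6407 CPM at 12 months. In HG-like cells the order was the opposite at its ends, with 9034, 4820 and 4888 CPM. In HF-SC-like cells the 3 libraries lay close together at 4701, 4063 and 4926 CPM. Thus the P38 library was the lowest of the 3 in the basal epidermis and the highest in the hair germ, and no single library was high in every class. UpHF-like cells held 554, 917 and 5013 CPM and SG-like cells 476, 579 and 1777 CPM, again with 12 months highest.

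**Figure D1:**
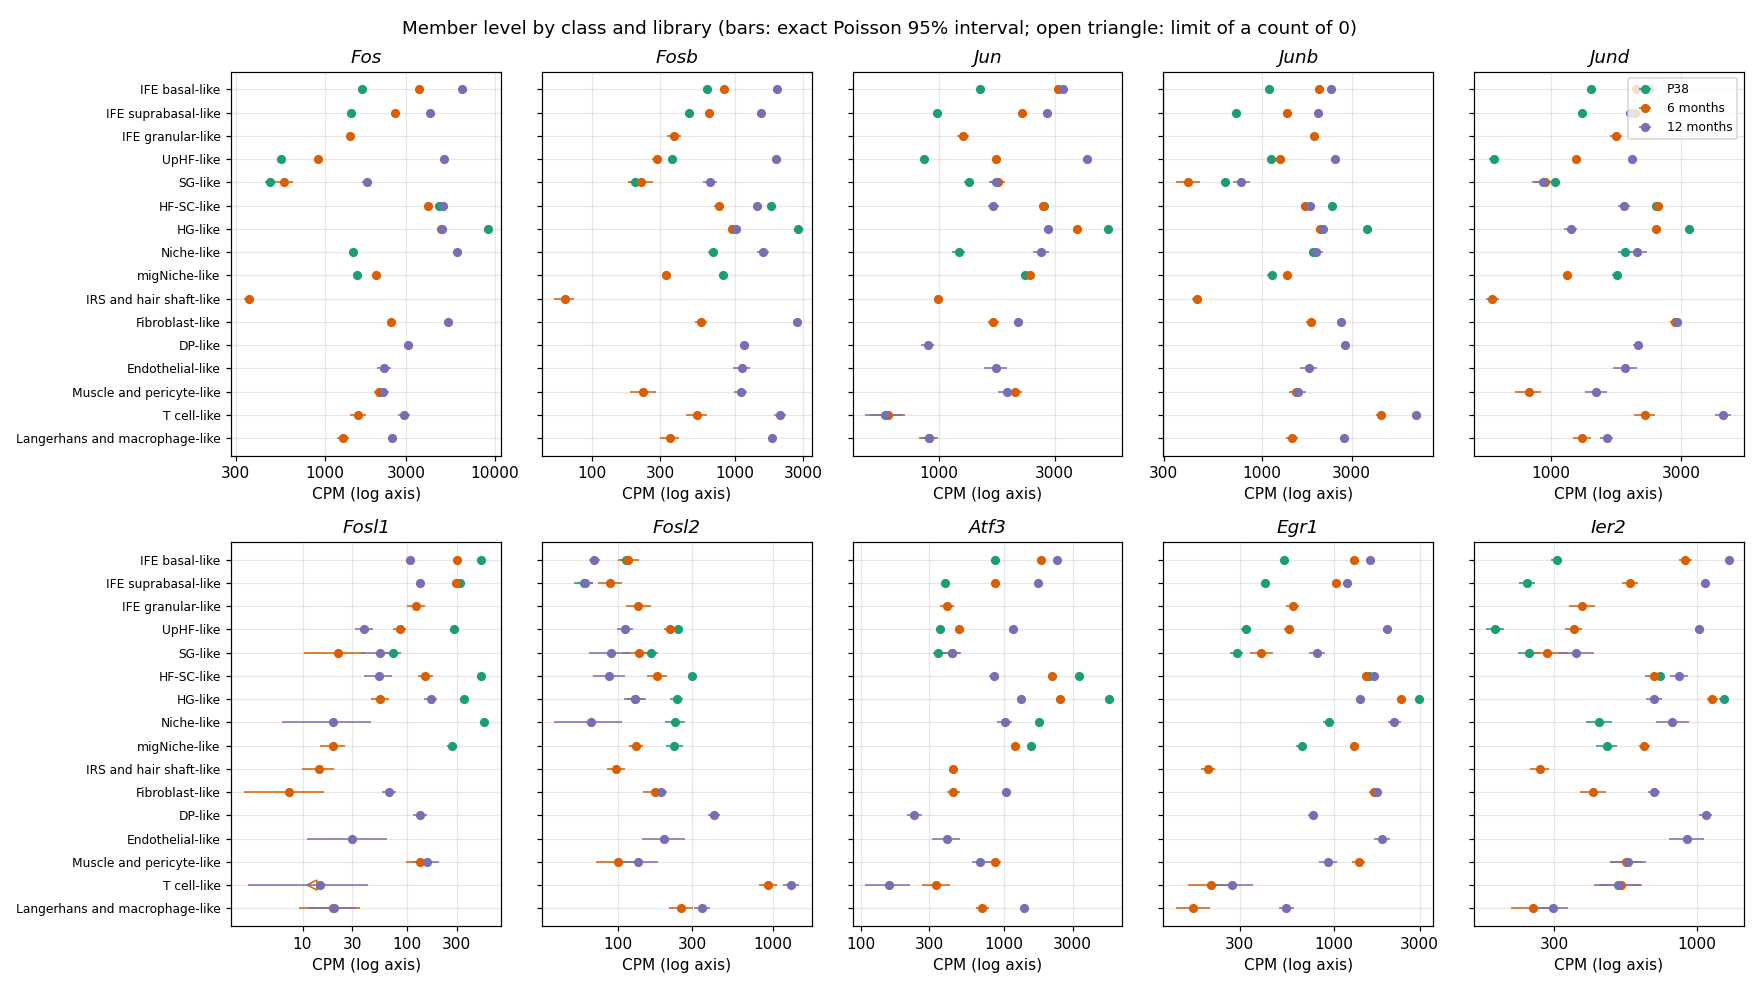
Level of each of the 10 genes (CPM, log axis) in every class with at least 20 cells, by library (colour), with exact Poisson 95% intervals that cover counting error only. Fos at P38 runs from 476 CPM in SG-like to 9034 CPM in HG-like cells, and the T cell-like points stand at the top for Fosl2 and Junb.

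For most members the direction between 12 months and P38 likewise depended on the class. More than 1.5-fold was counted as a difference, because each age is 1 library. In IFE basal-like cells 8 of 10 members were higher at 12 months (11.4% of 7713 genes of at least 10 CPM were) and 2 were lower (14.7% of genes). In UpHF-like cells 8 were higher (22.6% of genes) and 2 lower (15.6% of genes). In IFE suprabasal-like cells 7 were higher (7.34% of genes) and 1 lower (9.8% of genes). The SG-like class, whose median depth was 22816 UMIs at P38 but 707 UMIs at 12 months, had 3 higher (16.1% of genes) and 1 lower (13.5% of genes). In HF-SC-like cells none was higher (21.4% of genes) and 4 were lower (16.4% of genes), and in HG-like cells none was higher (18.2% of genes) and all 10 were lower (22% of genes). The HG-like class depended on the gate. With classes taken from clusters it had no value at 12 months, and a stricter gate kept 33 of its 81 cells there.

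At 6 months against P38 the IFE and UpHF-like classes again held the higher members and the HF-SC-like and HG-like classes lower ones. IFE basal-like cells had 6 members higher (14.2% of genes) and 1 lower (6.03% of genes), and IFE suprabasal-like cells 7 higher (11.6% of genes) and 0 lower (3.82% of genes). UpHF-like cells had 5 higher (12.3% of genes) and 1 lower (8.52% of genes). SG-like cells had 0 higher (21.3% of genes) and 2 lower (12.3% of genes), HF-SC-like cells 0 higher (18.7% of genes) and 4 lower (8.49% of genes), and HG-like cells 0 higher (15.7% of genes) and 6 lower (10% of genes). The SG-like class had a median depth of 661 UMIs at 6 months, against 22816 UMIs at P38 and 707 UMIs at 12 months. From 6 to 12 months UpHF-like cells stood out, with 8 members higher (13% of genes) and 2 lower (12.6% of genes). IFE basal-like cells had 2 higher (4.42% of genes) and 2 lower (15.7% of genes), IFE suprabasal-like cells 4 higher (4.52% of genes) and 1 lower (14.9% of genes), and SG-like cells 5 higher (14% of genes) and 1 lower (20.8% of genes). HF-SC-like cells had 1 higher (10.4% of genes) and 4 lower (18.1% of genes), and HG-like cells 1 higher (12.7% of genes) and 4 lower (23.6% of genes).

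Ier2, an immediate early gene that encodes a small nuclear protein, stood at 307 CPM at P38 and 1307 CPM at 12 months in IFE basal-like cells, a log2 ratio of 2.09 with a counting interval of 2.02 to 2.16. In HG-like cells it stood at 1248 and 694 CPM, a log2 ratio of -0.85 (-0.96 to -0.73). Egr1, a zinc finger transcription factor outside the AP-1 family, had 324 CPM at P38, 561 CPM at 6 months and 1972 CPM at 12 months in UpHF-like cells and 2957, 2369 and 1394 CPM in HG-like cells. For both genes P38 was thus the higher library in HG-like cells and the lower one in the other class. The intervals cover counting error only, and with 1 library per age the spread between mice is unknown.

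**Figure D2:**
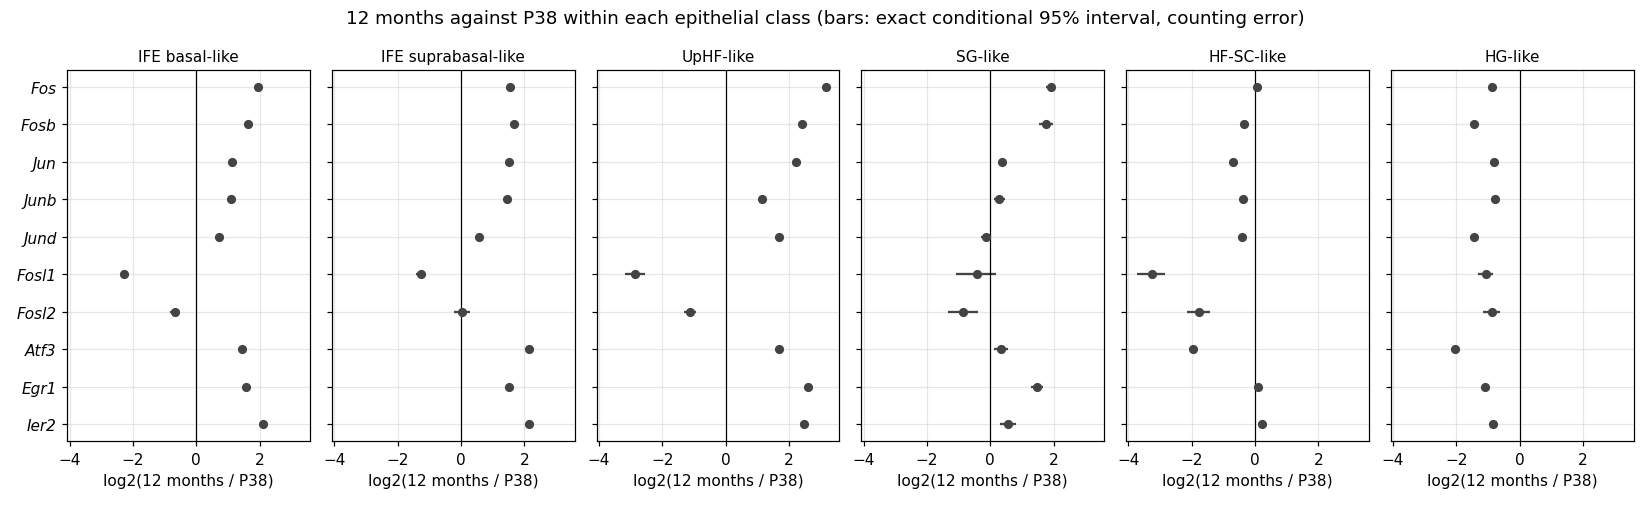
Log2 ratio of 12 months to P38 for the 10 genes within each of the 6 epithelial classes, with exact conditional 95% intervals for counting error. In HG-like cells all 10 points lie to the left of 0, while 8 of 10 lie to the right in IFE basal-like and UpHF-like cells.

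Fosl1 departed from the other members. It encodes a Fos family protein that lacks the activation domain of Fos. Its level was 517 CPM at P38, 306 CPM at 6 months and 106.5 CPM at 12 months in IFE basal-like cells and 514, 151 and 53.7 CPM in HF-SC-like cells. It was lower at 12 months than at P38 in all 6 epithelial classes, by a mean log2 difference of -1.80 ± 1.06 (SD over 6 classes, 1 library per age), against a share of 12.1% of genes lower in all 6. It was also lower in all 6 classes at 6 months than at P38, by -1.40 ± 0.85 (5.95% of genes). The counting interval included 0 in SG-like cells at 12 months, with a log2 ratio of -0.43 (-1.085 to 0.17). It also did in IFE suprabasal-like cells at 6 months, at -0.11 (-0.28 to 0.05). No other member lay on the same side of P38 in all 6 classes at both later ages.

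Fosl2, which encodes the other Fos family protein of this kind, was lower at 12 months than at P38 in 5 of 6 classes, by -0.85 ± 0.57 on the log2 scale. Its levels were low in the epithelium, from 60.0 CPM in IFE suprabasal-like to 301 CPM in HF-SC-like cells at P38. At 12 months they ran from 61.2 CPM to 129 CPM. Between 6 and 12 months it was lower in all 6 classes (13.1% of genes), although in HG-like cells both ages stood at 129 CPM, whereas Fos, Fosb and Junb were higher in all 6 (6.02% of genes). In HG-like cells the log2 ratios of Fos, Fosb and Junb were only 0.02, 0.09 and 0.06, with counting intervals that include 0. The same held for Junb in HF-SC-like cells, at 0.08. The mean differences were -0.62 ± 0.35 for Fosl2, 0.98 ± 0.90 for Fos, 1.29 ± 0.88 for Fosb and 0.47 ± 0.41 for Junb.

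To separate genes that follow a library from genes bound to a class, the variation of log2(CPM + 5) over the 6 classes and 3 libraries was divided into a class part, a library part and the rest, which holds their interplay and the counting error. The library part was larger than the class part in 0 of the 10 genes and in 17.2% of all genes, a share at which 0 of 10 is not unusual. The class part was 69.1% for Junb, 64.0% for Atf3 and 61.5% for Fos, and it was smallest for Jun at 35.7%. The library part was largest for Fosl1 at 37.5% and Fosl2 at 31.0%, and smallest for Atf3 at 0.91%. The rest was 48.0% for Jun and 43.6% for Jund, against a median of 20.7% over 7713 genes. The medians of the 10 members were 18.2% by library, 53.0% by class and 28.1% for the rest, and those of all genes were 14.2%, 57.4% and 20.7%. With classes taken from clusters in place of the gate, HG-like had no 12 months value, which left 5 classes with a value in every library. In that setting 3 of 10 members had the larger library part, and 3 did with cells thinned to 3000 UMIs. The median library part rested on which libraries were used: without 12 months it was 4.01% for the members and 6.13% for all genes, without P38 10.2% and 6.26%, and without 6 months 21.0% and 11.3%. With clusters as classes it was 33% and 16.5%.

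Hair follicle stem cells were compared with basal epidermis because the study follows the stem cells of the follicle with age. In the fit across the 3 libraries no member passed the test (12.5% of genes did), 0 had an unadjusted p under 0.05, and DESeq2 called 0. The log2 difference of Fos was 0.34 ± 0.45 (SE, edgeR adjusted p = 0.72) and that of Atf3 0.23 ± 0.59 (adjusted p = 0.89). The largest difference in favour of HF-SC-like cells was that of Fosl2, 0.69 ± 0.34 (adjusted p = 0.22).

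Within the libraries the same comparison gave differences that pointed different ways. Atf3, a stress-induced leucine zipper protein that can pair with Jun, reached 3318 CPM at P38 in HF-SC-like cells and 857 CPM in IFE basal-like cells (log2 ratio 1.95). At 6 months Atf3 stood at 2146 and 1797 CPM, a ratio of 0.26, and at 12 months 850 and 2333 CPM, a ratio of -1.46. Jun, the main partner of Fos, had 2712 against 1480 CPM at P38 (0.87) and 1671 against 3254 CPM at 12 months (-0.96). Ier2 had 731 against 307 CPM at P38 (1.25) and 860 against 1307 CPM at 12 months (-0.60). These 3 of 10 members were past 1.5-fold in opposite directions in the 2 libraries, as were 0.765% of the 7713 genes. For Fos, Fosb, Junb and Jund the ratio also changed sign between P38 (1.51, 1.49, 1.10 and 0.79) and 12 months (-0.38, -0.47, -0.38 and -0.31), without reaching 1.5-fold at 12 months. The difference between libraries was not tested. For P38 against 6 months 0 members were opposite in this way (0.596% of genes), and for 6 against 12 months 0 (0.804% of genes). The cells of these classes sat at different shares of mitochondrial UMIs (medians of 5.30% at P38 and 5.73% at 12 months in HF-SC-like cells, 4.55% and 5.17% in IFE basal-like cells), and the part of this in the result was not tested.

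**Figure D3:**
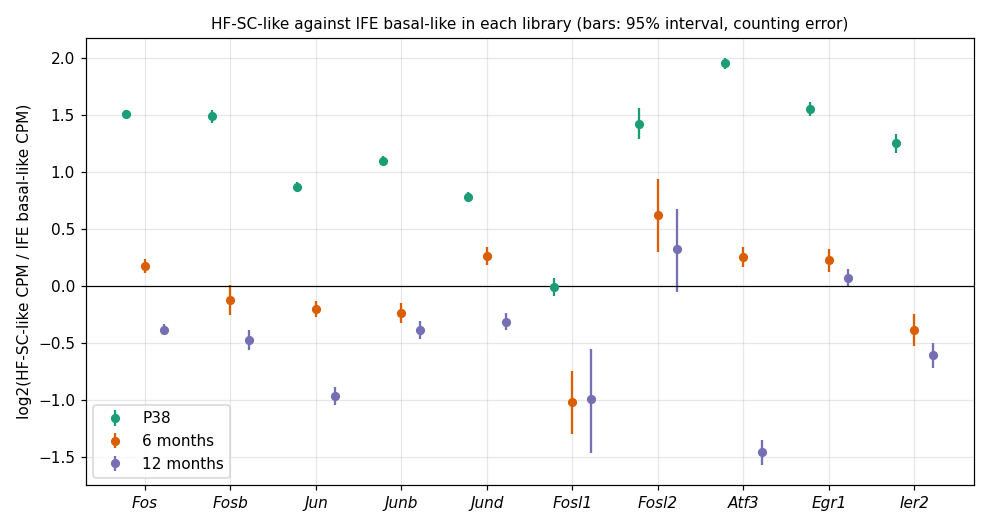
Log2 ratio of the HF-SC-like to the IFE basal-like level of each gene in each library, with exact conditional 95% intervals for counting error. The P38 points lie above 0 for every gene but Fosl1, where the ratio is -0.01, and the 12 months points of Fos, Fosb, Jun, Junb, Jund, Fosl1, Atf3 and Ier2 lie below 0.

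Heat shock genes, which stress and warming of cells induce, were measured beside the members. Their summed level of 10 genes in HF-SC-like cells was 31515 CPM at P38, 14145 CPM at 6 months and 6180 CPM at 12 months, and in HG-like cells it was 25317, 14314 and 7821 CPM. In IFE basal-like cells it was 10211, 11142 and 7051 CPM. For the members the sums in the same order of ages were 20407, 16376 and 15179 CPM (HF-SC-like), 33713, 20103 and 15713 CPM (HG-like) and 8598, 15987 and 21661 CPM (IFE basal-like). So in HG-like cells both sums were highest at P38, while in IFE basal-like cells the members were highest and the heat shock genes lowest at 12 months. Of the heat shock genes, 6 of 10 were lower at 12 months than at P38 in all 6 classes (12.1% of genes). The part of heat shock or of cell release in the members' levels was not tested.

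**Figure D4:**
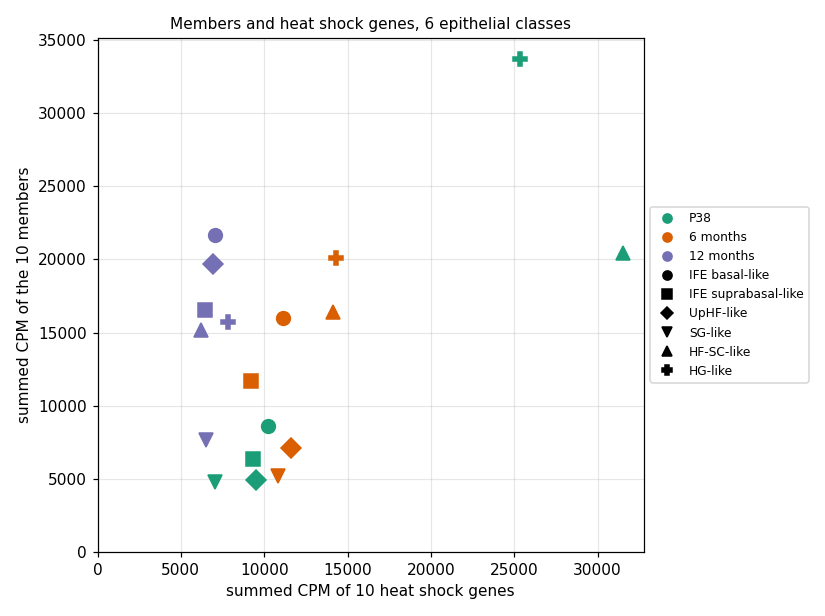
Summed CPM of the 10 members against summed CPM of 10 heat shock genes in the 6 epithelial classes (symbol) of each library (colour). The P38 HF-SC-like and HG-like points stand far to the right at 31515 and 25317 CPM of heat shock transcripts, and the 12 months points lie between 6180 and 7821 CPM.

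Within a class the members were unevenly spread over cells. After thinning to 3000 UMIs per cell, Fos was detected in 62.0% of 292 IFE basal-like cells at P38 (exact binomial 95% interval 56.1 to 67.6%), in 85.7% of 91 cells at 6 months (76.8 to 92.2%) and in 93.9% of 668 cells at 12 months (91.8 to 95.6%). Without thinning the shares were 95.3%, 94.6% and 97.6%. In UpHF-like cells the thinned shares were 32.6% of 190, 47.0% of 132 and 96.0% of 200 cells. The tenth of cells with most Fos held 81.6% of the Fos UMIs of UpHF-like cells at P38 and 26.6% at 12 months. At equal depth the low P38 level of UpHF-like cells thus came from a minority of cells, and the 12 months level from nearly every cell. Cells of 1 library are not replicates, the intervals cover counting error only, and no class here is known to lack Fos that could give the share from free RNA.

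Across cells of one class, in IFE basal-like, UpHF-like, HF-SC-like and HG-like cells, r of Fos ran from -0.36 to 0.14 with Fosl1 and from -0.19 to 0.24 with Fosl2, and from 0.23 (Junb) to 0.82 (Egr1) with the other 7 members. In 336 HF-SC-like cells at P38, thinned to equal depth, Pearson's r of Fos was 0.76 with Egr1, 0.73 with Jun and 0.69 with Fosb, but -0.31 with Fosl1 and 0.01 with Fosl2. In IFE basal-like cells at 12 months r was 0.72 with Jun, 0.66 with Fosb and 0.14 with Fosl1. Some other classes, not all of them small, lay outside these ranges. In IFE suprabasal-like cells r with Fosl1 was -0.39 in 153 cells at P38, -0.38 in 72 cells at 6 months and 0.23 in 281 cells at 12 months. In the same class at P38 r was 0.17 with Jund and 0.22 with Atf3. In 43 T cell-like cells at 6 months r was 0.46 with Fosl2 and 0.40 with Junb, in 38 such cells at 12 months it was 0.06 with Junb and -0.15 with Atf3, and in 22 SG-like cells at 12 months it was 0.37 with Fosl1. These values describe cells that share a library, and no p is given. In IFE basal-like, UpHF-like, HF-SC-like and HG-like cells Fosl1 ran from 38.9 to 517 CPM and Fosl2 from 70.2 to 301 CPM. Fos ran from 554 to 9034 CPM in the same classes. Few UMIs per thinned cell draw r towards 0, and the part of this in the low r of Fosl1 and Fosl2 was not tested.

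Over all 34 class and library sums the 10 genes most like Fos, among 2765 genes of at least 50 CPM, were Fosb (r = 0.87), Ier2 (0.85), Egr1 (0.80), Sertad1 (0.75), Jund (0.73), Socs3 (0.72), Junb (0.71), Gm17056 (0.70), Dusp1 (0.69) and Zfp36 (0.68). For Jund they included Junb (0.78), Fosb (0.77), Mxd4 (0.74), Fos (0.73), Sertad1 (0.72), Klf4 (0.70), Rabac1 (0.70), Ppp1r15a (0.69) and Ccnl1 (0.67). The correlation of Fos with Fosl2 was -0.08 and with Fosl1 0.15, and that of Jun with Fosl2 was -0.54. The sums share 3 libraries and their depth, so these are descriptions.

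All 10 members passed the test for any difference between classes in edgeR's quasi-likelihood fit with the library as a block, as did 73.6% of the 13730 genes tested, so most genes gave this result. Classes of a library come from the same mice, and p-values measure the spread of class sums over the libraries that hold a class. The IFE granular-like class and the inner root sheath and hair shaft-like class had a value only at 6 months. The dermal papilla-like and endothelial-like classes had one only at 12 months, so none of these classes was replicated. Leaving out the 6 months library, which also removed the classes found only there, left Fosl2 and Junb as the only members called. The adjusted p of the 10 members ran from 3.17e-07 for Fosl2 to 0.0188 for Ier2.

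T cell-like cells held 51 cells at 6 months and 40 at 12 months and carried larger differences of Fosl1, Fosl2, Egr1, Atf3 and Jun than the other class comparisons fitted here. Fosl2 was at 928 CPM (811 to 1058, exact Poisson 95% interval) and 1317 CPM (1164 to 1484), above every one of the 6 epithelial classes of the same library, which ended at 215 and 129 CPM. Junb, which encodes a Jun family member with weaker activation than Jun, was at 4302 and 6613 CPM, against at most 2034 and 2441 CPM in the epithelial classes. Jun was at 613 and 595 CPM, below the lowest epithelial values of 1719 and 1671 CPM. Egr1 was at 207 and 273 CPM and Atf3 at 336 and 156 CPM, both below all 6 epithelial classes, whose lowest values were 396 and 806 CPM for Egr1 and 431 and 433 CPM for Atf3. Jun and Junb were therefore on opposite sides of the epithelium in the same cells.

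Against the mean of the 6 epithelial classes, 2 members were higher (13.3% of genes were) and 4 lower (11.9% of genes). Fosl2 was higher by 3.19 ± 0.26 on the log2 scale (SE, edgeR adjusted p = 1.18e-09) and Junb by 1.61 ± 0.27 (adjusted p = 5.18e-05). Jun was lower, at -2.26 ± 0.42 (adjusted p = 0.000216), as were Egr1 at -2.57 ± 0.52 (adjusted p = 0.000548) and Atf3 at -2.35 ± 0.67 (adjusted p = 0.011). Fosl1 was at 0 of 241269 UMIs at 6 months, which allows up to 12.4 CPM, and at 3 UMIs or 14.6 CPM (3.02 to 42.8) at 12 months, so its fitted difference of -3.94 ± 1.34 (adjusted p = 0.0326) depends on few counts. Jund had 2201 and 4267 CPM and a difference of 0.71 ± 0.31 that missed the threshold (adjusted p = 0.0962), and it was called by DESeq2 and without the P38 library. The calls of Fosl1 and Atf3 were lost without 6 months, that of Atf3 also without 12 months and that of Fosl1 without the library block. Junb, Fosl2, Jun and Egr1 were called in all 12 alternatives. After thinning to 3000 UMIs, Fosl2 was detected in 81.4% of 43 T cell-like cells at 6 months and in 100% of 38 at 12 months, and Fosl1 in 0 of 43 and in 2.63% of 38. The median of the 10 members was -0.69, beside -0.40 over all genes tested. The gate markers Cd3e (2019 and 2877 CPM) and Cd3g (3005 and 4155 CPM) were present, and the keratinocyte transcript Krt14 stood at 249 and 146 CPM in these cells.

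**Figure D5:**
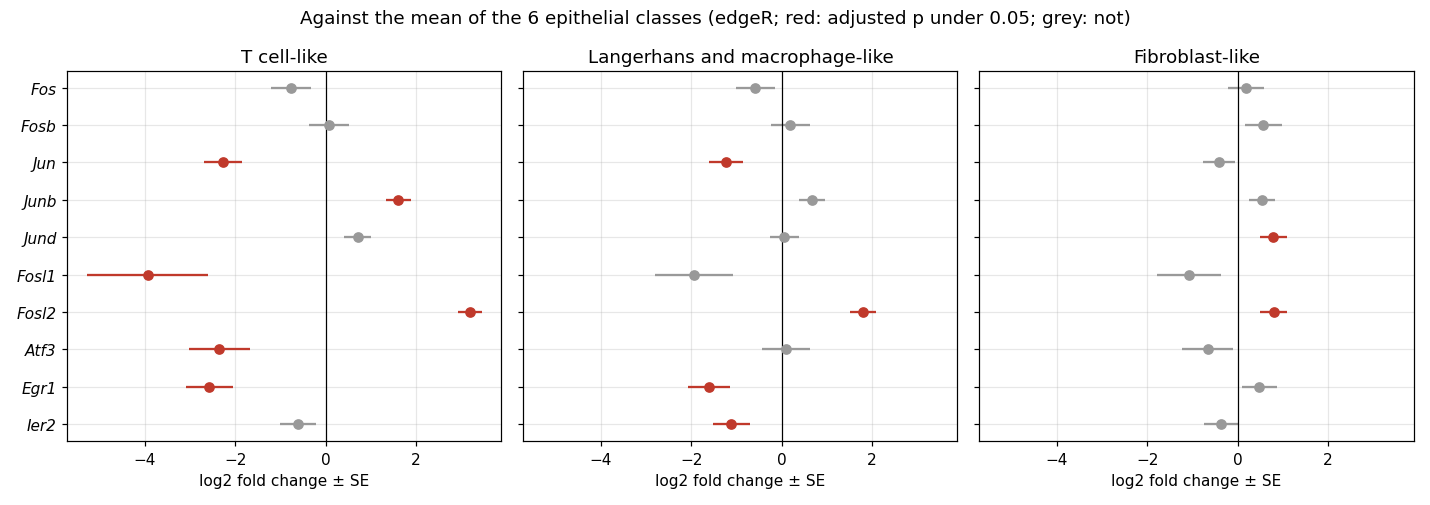
Log2 fold change and standard error (edgeR) of each gene in T cell-like, Langerhans and macrophage-like and fibroblast-like cells against the mean of the 6 epithelial classes. Points in red had an adjusted p under 0.05: Fosl2 lies to the right in all 3 panels, by 3.19, 1.81 and 0.80, and Jun to the left in the first 2.

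In Langerhans and macrophage-like cells, the antigen-presenting and phagocytic cells of the skin, 1 member was higher (18.9% of genes) and 3 lower (13% of genes). Fosl2 had 257 CPM at 6 months and 350 CPM at 12 months, above the highest epithelial values of 215 and 129 CPM, and a log2 difference of 1.81 ± 0.29 (edgeR adjusted p = 2.16e-05). Jun was at 908 and 905 CPM, below all 6 epithelial classes, with a difference of -1.23 ± 0.38 (adjusted p = 0.0153). Egr1 was at 165 and 544 CPM, with a difference of -1.60 ± 0.47 (adjusted p = 0.0105), and Ier2 at 251 and 297 CPM, with -1.11 ± 0.41 (adjusted p = 0.0424). Leaving out the 6 months library left Fosl2 as the one member called, and leaving out 12 months left Fosl2 and Egr1. The call of Ier2 was also lost with cells of at least 1000 genes, with clusters as classes and without the library block, and so held in 7 of 12 alternatives, and that of Egr1 was also lost without the library block. The median of the members was -0.26, beside -0.16 over all genes.

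Fibroblast-like cells, the collagen-producing cells of the dermis, held Jund at 2846 and 2891 CPM and Fosl2 at 172 and 190 CPM. The epithelial classes reached at most 2471 and 2291 CPM for Jund and 215 and 129 CPM for Fosl2. Jund, the Jun family member known for steady transcription without stimulation, was higher by 0.80 ± 0.30 (edgeR adjusted p = 0.0394) and Fosl2 by 0.80 ± 0.30 (adjusted p = 0.0392), and no member was lower (24.2% of genes were higher and 13.3% lower). Both calls were lost with clusters as classes, with the cells of highest doublet score removed and without the library block. Without 12 months neither was called and Fosl1 was, without 6 months Fosl2 alone was called, and without P38 Jund and Junb were. At 12 months Fosb stood at 2728 CPM in these cells, the highest of 13 classes, and at 579 CPM at 6 months.

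In upper hair follicle cells compared with basal epidermis, 1 of 10 members was called higher (9.13% of genes) and none lower (6.28% of genes). Fosl2 was at 244, 215 and 111 CPM in UpHF-like and at 112, 116.5 and 70.2 CPM in IFE basal-like cells, higher in each of the 3 libraries, with a log2 difference of 1.05 ± 0.34 (edgeR adjusted p = 0.0382). Fos was at 554 against 1653 CPM at P38, 917 against 3585 CPM at 6 months and 5013 against 6407 CPM at 12 months, lower in all 3, with -1.03 ± 0.45 (adjusted p = 0.13). Atf3 was likewise lower in each library, with -1.27 ± 0.58 (adjusted p = 0.15). The call of Fosl2 was lost without P38 and without 6 months, with clusters as classes and without the library block, and without the filter on low counts Fos and Atf3 were called as well. Without the 12 months library Fos was called too, at -1.64 ± 0.39 (adjusted p = 0.0159). In this comparison 0 members were past 1.5-fold in opposite directions between P38 and 6 months (0.233% of genes), P38 and 12 months (0.298% of genes) or 6 and 12 months (0.376% of genes).

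In suprabasal epidermis, the layers that have begun to differentiate, edgeR called 0 members against basal epidermis (9.95% of genes), 0 had an unadjusted p under 0.05 and DESeq2 called 0. The median difference of the members was -0.35, beside -0.02 over all genes, and the estimates ran from -0.68 ± 0.57 for Atf3 to -0.003 ± 0.68 for Fosl1 (SE). In each library Fos was lower in suprabasal-like than in basal-like cells, at 1429 against 1653 CPM, 2593 against 3585 CPM and 4166 against 6407 CPM. Members past 1.5-fold in opposite directions numbered 0 between P38 and 6 months (0.207% of genes), P38 and 12 months (0.0389% of genes) and 6 and 12 months (0.0908% of genes).

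Inner bulge Niche-like cells were compared with HF-SC-like cells in the P38 and 12 months libraries, since 6 months held 13 such cells. EdgeR called 0 members (0.0437% of genes), 0 had an unadjusted p under 0.05 and DESeq2 called 0. At P38 Jun stood at 1202 against 2712 CPM, or -1.17 as a log2 ratio, and at 2632 against 1671 CPM at 12 months, a ratio of 0.66. It was the 1 member past 1.5-fold in opposite directions (2.94% of genes).

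Other genes of the pathway were taken from lists chosen, as were the members, with earlier results known. Of 24 other immediate early genes, 6 were higher and 8 lower in T cell-like cells (13.3% of genes were higher and 11.9% lower), 9 higher and 3 lower in Langerhans and macrophage-like cells (18.9% and 13% of genes), and 14 higher and 2 lower in fibroblast-like cells (24.2% and 13.3% of genes). Nr4a2, an orphan nuclear receptor, was higher by 4.36 ± 0.44 in T cell-like cells (edgeR adjusted p = 2.84e-08) and by 3.38 ± 0.45 in fibroblast-like cells (adjusted p = 1.46e-06), and Nr4a3 by 4.69 ± 0.52 in T cell-like cells (adjusted p = 1.59e-07). Ccn1, a matrix protein gene, was lower in UpHF-like than in IFE basal-like cells, with -2.61 ± 0.54 (adjusted p = 0.00129). Egr2, a relative of Egr1, was higher in UpHF-like than in IFE basal-like cells by 2.28 ± 0.40 (adjusted p = 0.000220).

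Of 11 tested leucine zipper partners of AP-1, 8 were higher and none lower in Langerhans and macrophage-like cells (18.9% and 13% of genes) and 4 higher and 1 lower in T cell-like cells (13.3% and 11.9% of genes). Batf, a partner of Jun proteins in lymphocytes and dendritic cells, was among those higher in both, but nearly all epithelial sums held no Batf UMI, so no fold is given. Jdp2, which encodes a repressor that dimerises with Jun, was the one partner called between follicle stem cells and basal epidermis, higher in HF-SC-like cells by 4.40 ± 0.65 (edgeR adjusted p = 3.43e-05), a size that rests on few UMIs in IFE basal-like cells.

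Of 15 upstream kinases and factors, 2 were higher and none lower in HF-SC-like than in IFE basal-like cells, close to the shares over all genes (7.28% higher and 5.19% lower). They were Mapk3, the kinase ERK1, with 0.96 ± 0.19 (edgeR adjusted p = 0.00117), and Egfr, the receptor of epidermal growth factor, with 0.87 ± 0.24 (adjusted p = 0.0163). Mapk3 was also higher in UpHF-like cells, by 1.55 ± 0.19 (adjusted p = 3.47e-06). Of 10 AP-1 targets tested, 2 were higher and 2 lower in suprabasal than in basal epidermis (4.33% and 5.62% of genes). Sprr1b and Ivl, which encode precursors of the cornified envelope, were higher by 6.26 ± 0.52 (adjusted p = 9.88e-08) and 3.08 ± 0.51 (adjusted p = 0.000262), while Ccnd1, a cyclin, was lower at -2.96 ± 0.59 (adjusted p = 0.00137).

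Of 10 heat shock genes none was called between HF-SC-like and IFE basal-like (12.5% of genes), between suprabasal and basal (9.95%) or between UpHF-like and IFE basal-like cells (15.4%), while 5 were lower in T cell-like cells (11.9%). Hspb1, a small heat shock protein gene, was lower there, at -4.03 ± 0.74 (edgeR adjusted p = 0.000176). Of 6 cell cycle genes all 6 were lower in suprabasal than in basal epidermis (5.62% of genes).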

How the data were processed

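Back skin cells of 3 libraries (10X 3′ version 3) were analysed, 1 each at P38, 6 months and 12 months. The authors deposited matrices of raw counts (UMIs of each gene in each barcode), with no normalization. Reads had been mapped to mm10 by Cell Ranger, version 6.1.2 per the submitters' processing notes and, per the file headers, 6.0.0 for some tables. The P53, 24 months and scATACseq libraries were not analysed here.

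The filter stated in the methods was applied to the deposited matrices (more than 200 and fewer than 5000 genes, under 15% mitochondrial UMIs), which kept 34646663, 24698719 and 38910431 UMIs. Each cell was scored by the mean z of log-scaled counts (10000 per cell) over markers of 18 classes. It was assigned to its best class above 0.5 with a margin of 0.25 over the next and at least 3 markers detected. Of the gated cells, 584 lay within 0.1 of a limit. Scrublet in scanpy 1.11.5 called 7 of 8851 cells doublets, too few to have worked, so none was removed in the values given, and an alternative removed 40, 133 and 141 cells. Free RNA was not subtracted.

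UMIs were summed per class and library (at least 20 cells) and tested with edgeR 4.0.16 in R 4.3.3: TMM, filterByExpr, quasi-likelihood F test, library and class as terms, Benjamini-Hochberg adjustment over 13730 genes, threshold 0.05. The scripts were tested on simulated data. CPM values carry exact Poisson intervals and ratios exact conditional intervals, which cover counting error only at 95%. Log2 values for the split and for library differences had 5 CPM added. Shares were computed after thinning to 3000 UMIs, which leaves shallower cells out. Alternatives were DESeq2 1.42.0 size factors and test, no filter, no library block, each library left out, cells of at least 1000 genes, a margin of 0.5, clusters as classes, doublet scores, pseudocounts of 1 and 20 CPM, thinned cells and, chosen after seeing the data, removal of shared barcodes. Tables and intervals were made in scipy 1.17.1 and pandas 2.3.3 (Python 3.11.15). The 10 genes and all lists were chosen with earlier results of these data known. All 10 members are named, and from each list the text names some of the up to 3 called genes with the largest change in a comparison. The genes most like a member are the 10 of highest r. Some genes that these rules select are not reported here. The motif TGACG was chosen after the promoters had been seen. Replicate numbers are 1 in every library and pair nothing, so the block is the library.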

Additional observations from a re-analysis of the deposited data

Results flagged for a closer look

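4 class differences pointed more than 1.5-fold in opposite directions in the P38 and 12 months libraries, which is why they are given here. With 1 library per age the difference between libraries was not tested. HF-SC-like against IFE basal-like cells gave log2 ratios of 0.87 at P38 and -0.96 at 12 months for Jun, 1.95 and -1.46 for Atf3, and 1.25 and -0.60 for Ier2. Niche-like against HF-SC-like cells gave -1.17 and 0.66 for Jun. Each kept its sign under the alternatives run for it, namely a minimum of 1000 genes, the stricter gate, clusters, doublet scores, shared barcodes, thinning and the pseudocounts, except that clusters gave no 12 months value for the Niche-like comparison. The level of Atf3 in HF-SC-like cells at 12 months also varied with the mitochondrial share of the cells, as given under other observations. Over all 7713 genes of at least 10 CPM, 0.765% did so for the first comparison and 2.94% for the second. Heat shock transcripts summed to 31515 CPM in HF-SC-like cells at P38 and 6180 CPM at 12 months, against 10211 and 7051 CPM in IFE basal-like cells, and their part in these values was not tested.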

How the results depend on the processing

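Removal of cells with shared barcodes, chosen after seeing the data, changed no call. Without the library block, that is without the replicate block, 6 members were called for any class difference, 0 in UpHF-like, 2 in Langerhans and macrophage-like and 0 in fibroblast-like cells, and the genes called were 759 for suprabasal, 1011 for HF-SC-like and 1212 for UpHF-like against IFE basal-like and 1 for Niche-like against HF-SC-like cells. With classes from clusters 0 members were called in UpHF-like and in fibroblast-like cells, 1373 genes in UpHF-like and 103 in Niche-like cells, and 3 members had the larger part by library, as also with thinned cells (3). Without a filter 3 members were called in UpHF-like cells and 25 genes in Niche-like cells. With the highest doublet scores removed 0 members were called in fibroblast-like cells. Of members more than 1.5-fold different at 12 months, 1 was lower in IFE basal-like cells with the stricter gate and with 20 CPM added, 2 (stricter gate) and 0 (thinned) were lower in SG-like cells and 7 higher with clusters. The cause was not tested.

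Leaving out 1 library gave 2 to 10 members and 7049 to 8009 genes for any class difference, 0 members and 581 to 984 genes for suprabasal, 0 members and 757 to 1376 genes for HF-SC-like, 0 to 2 members and 958 to 1747 genes for UpHF-like, each against IFE basal-like, 0 members and 1 to 4 genes for Niche-like against HF-SC-like, and, against the epithelial mean, 4 to 7 members and 1900 to 3090 genes for T cell-like, 1 to 5 members and 2099 to 3924 genes for Langerhans and macrophage-like and 1 to 2 members and 3469 to 4616 genes for fibroblast-like cells. Between 0 and 2 members had the larger part by library.

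Estimates that changed sign, none of them called, were these on the log2 scale. For HF-SC-like against IFE basal-like cells Junb was 0.0736 with DESeq2, 0.0738 with its size factors, 0.0771 with clusters, 0.00896 without high doublet scores and 0.0114 with the stricter gate, and Ier2 0.0142 with the stricter gate. For suprabasal cells Fosl1 was 0.00905 with at least 1000 genes and 0.0817 with the stricter gate, and for Niche-like cells Fosl1 was 0.309 without the block. For Langerhans and macrophage-like cells Jund was -0.00364 with at least 1000 genes, -0.0396 with clusters, -0.0294 without high doublet scores and -0.00926 without a filter, and with clusters Fosb was -0.0144 and Atf3 -0.207. For T cell-like cells Fosb was -0.165 with clusters. Leaving out 1 library turned these estimates as well. For HF-SC-like against IFE basal-like cells the ranges were Jun -0.734 to 0.211, Junb -0.50 to 0.285, Ier2 -0.700 to 0.291, Fos -0.27 to 0.703, Fosb -0.459 to 0.556, Jund -0.199 to 0.395, Atf3 -0.626 to 0.97, Egr1 -0.0461 to 0.783. For Niche-like cells the ranges were Fosl1 -2.33 to 0.0929, Jun -0.985 to 0.248, Egr1 -0.472 to 0.247. For T cell-like cells the ranges were Fosb -0.0495 to 0.212. For Langerhans and macrophage-like cells the ranges were Fosb -0.411 to 0.622, Jund -0.199 to 0.261, Atf3 -0.462 to 0.456. For UpHF-like cells the ranges were Junb -0.215 to 0.0568. For suprabasal cells the ranges were Fosl1 -0.177 to 0.172. With 1 library per age, 13 Niche-like cells at 6 months and 40 to 51 T cell-like cells, spread between mice could not be measured.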

Other observations

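Barcodes outside the cell filter also carried the members. In the 2048 barcodes of the 12 months library with at least 15% mitochondrial UMIs, Fosb stood at 4633 CPM against 1704 CPM in kept cells, and Egr1 at 2361 against 1475 CPM. In the 825 such barcodes at 6 months Fosb stood at 229 against 502 CPM and Fos at 543 against 2314 CPM. In the 168 at P38 Fosb stood at 1624 against 998 CPM and Fos at 2155 against 2614 CPM. Fosb was thus above the kept cells in 2 of the 3 libraries. Within HF-SC-like cells at 12 months, Atf3 was at 1584 CPM in 31 cells under 5% mitochondrial UMIs and at 515 CPM in 70 cells from 5 to 15%, and at P38 at 3698 CPM in 140 and 3016 CPM in 207 cells. The order of the libraries was the same in both ranges.

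In barcodes of 5000 genes or more, which the filter removes, Fos was below the kept cells in all 3 libraries, at 1249 against 2614 CPM at P38, 1466 against 2314 CPM at 6 months and 2885 against 5112 CPM at 12 months.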
